A study of Arabidopsis thaliana with 2 samples.

Results

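The Calvin cycle and photorespiration enzymes described here are encoded by 35 genes, chosen by locus: 19 encode Calvin cycle enzymes and CP12 proteins (the Calvin cycle genes) and 16 encode photorespiratory enzymes. All 35 had a value in the exon, 5' UTR and 3' UTR tables, which hold 25224 genes. The data are 2 libraries, MBP ribo-seq and MBP mRNA-seq, both from membrane-bound polysomes (MBPs, the ribosomes and transcripts recovered with microsomal membranes) of whole wild-type (WT) Arabidopsis seedlings at 13 days of age, grown on ½ MS plates in cycles of 16 h light and 8 h dark. In ribo-seq the MBPs were digested with RNase I and the fragments protected in monosomes were sequenced. In mRNA-seq the RNA of the fraction itself was sequenced. Each assay was run on 1 library, and so no difference below has a replicate check and none was tested between conditions. No free polysome or total RNA library was analysed here, and the values therefore do not show whether a transcript was enriched on membranes. In whole seedlings, the number of cells that express a gene and the RNA per cell cannot be told apart.

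The Calvin cycle fixes CO2 onto ribulose bisphosphate in the chloroplast and uses ATP and NADPH to reduce the product to triose phosphate, most of which goes back into making the acceptor. When Rubisco takes oxygen in place of CO2 it makes phosphoglycolate, and photorespiration returns that carbon to the cycle through the chloroplast, the peroxisome and the mitochondrion, releasing CO2 and ammonium on the way. Both pathways run at high rates in illuminated green tissue, their enzymes are encoded in the nucleus, and the enzymes of the chloroplast are made as precursors and imported.

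Values are RPM, reads scaled to the depth of the library. The steps between low values gave depths of 38438718 reads in ribo-seq and 66958224 reads in mRNA-seq, and where no read was counted up to 3 reads (0.0780 and 0.0448 RPM) may have been missed. The Rubisco small subunit genes and Rubisco activase, markers of green tissue, had 4095 to 9535 RPM in ribo-seq and 4368 to 13066 RPM in mRNA-seq, so both libraries held RNA of green tissue as labelled. The members were likewise abundant: 34 of 35 had at least 1 RPM in both libraries, 30 had at least 100 RPM in both, and 19 reached 1000 RPM in mRNA-seq. Together the 35 genes held 6.02% of all exon reads in ribo-seq (Wilson 95% interval 6.01 to 6.03) and 5.77% in mRNA-seq (5.77 to 5.78). The Calvin cycle genes held 3.28% and 3.03%, and the photorespiration genes 2.74% and 2.75%. Intervals here and below cover counting error only.

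For each gene the ribo-seq exon value was set against the mRNA-seq exon value. The ratio is log2((ribo-seq RPM + 1)/(mRNA-seq RPM + 1)), computed for the 16879 genes whose exon RPM averaged 1 or more over both libraries, and the centred ratio is this ratio minus its median over all those genes, which was -0.99. A centred ratio of 0 therefore marks the median gene and 1 marks 2-fold more footprint reads per mRNA read than the median gene. Library preparation can also differ between the assays in gene-specific ways, and its part in a ratio was not tested. All 35 members entered the comparison.

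The members' centred ratios ran from -0.60 (GGAT1) to 1.28 (CAT2) with a median of 0.31, where the middle 50% of all tested genes lay between -0.55 and 0.47. Of the 35, 26 lay above the median gene and 9 below it. This direction depended on how low genes entered the reference. With a pseudocount of 5 RPM, 17 of 35 lay above and without the expression filter 16, and the median turned negative in both settings. The direction stayed with a minimum mean exon RPM of 10, where 25 of 33 members lay above and the median was 0.33. In the main setting the medians were 0.30 for the Calvin cycle genes (15 of 19 above) and 0.39 for the photorespiration genes (11 of 16 above). The Calvin cycle genes ran from -0.50 to 1.20 and the photorespiration genes from -0.60 to 1.28, so the groups overlapped. More than 2-fold above the median gene were 3 members, CAT2, CP12-2 and RPI, beside 5.59% of all tested genes. More than 2-fold below it were 0 members, beside 11.8% of all tested genes.

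Transcript level bears on how these figures are read. When the tested genes were ordered by mean exon RPM and split into deciles of equal size, 32 of the 35 members fell in the highest decile, whose median centred ratio was 0.32 and of which 12.3% passed the upper 2-fold limit. Centred on the genes of its own decile, the median member was at 0.01, with 18 of 35 above. The excess of the members over the median gene was thus of the size seen in the highest decile as a whole.

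**Figure D1:**
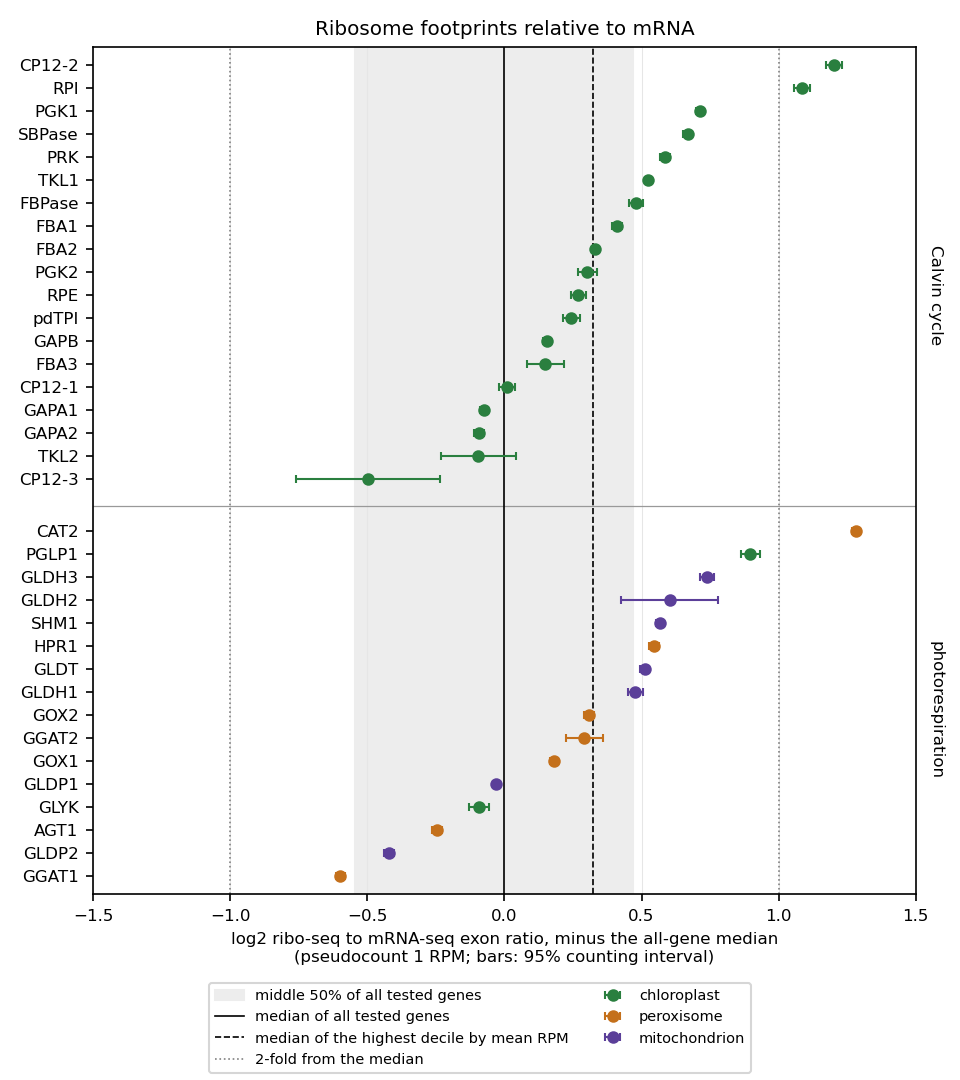
Centred ratio of each member (log2 ribo-seq to mRNA-seq exon ratio minus the all-gene median, x axis) by organelle, Calvin cycle genes above and photorespiration genes below, with 95% counting intervals from 1 library per assay. CAT2, CP12-2 and RPI lie right of the 2-fold line, no member lies left of the lower one, and both groups are spread around the dashed median of the highest decile at 0.32.

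The 5 genes of the reduction steps had a median centred ratio of 0.15, with 3 above the median gene. PGK1 (AT3G12780), a chloroplast phosphoglycerate kinase, had 1875 ribo-seq RPM and 2272 mRNA-seq RPM, a centred ratio of 0.71 (95% counting interval 0.70 to 0.72). PGK2 (AT1G56190), the other kinase gene of the plastid, had 239 ribo-seq RPM and 385 mRNA-seq RPM and a centred ratio of 0.30. PGK1 thus dominated the step, also per kb (1297 and 1571 RPM per kb against 166 and 268 RPM per kb in ribo-seq and mRNA-seq), and had the higher footprint to mRNA ratio, by 1.33-fold (1.30 to 1.36). The next enzyme, chloroplast glyceraldehyde phosphate dehydrogenase, is built from A subunits (GAPA1 and GAPA2) and a B subunit (GAPB). GAPA1 (AT3G26650) had 1529 ribo-seq RPM and 3196 mRNA-seq RPM, with a centred ratio of -0.07. GAPA2 (AT1G12900) had 848 ribo-seq RPM and 1795 mRNA-seq RPM, with a centred ratio of -0.09. GAPB (AT1G42970) had 2000.0 ribo-seq RPM and 3568 mRNA-seq RPM, a centred ratio of 0.15 (0.14 to 0.17). The A subunit genes did not differ from each other beyond counting error (1.01-fold, 0.998 to 1.03), while the ratio of GAPB was 1.17-fold that of GAPA1 (1.16 to 1.19). Per kb of coding sequence, GAPA1 and GAPA2 summed to 1990.2 RPM in footprints and 4179 RPM in mRNA, against 1488 and 2655 for GAPB, so that the excess of A over B subunit was smaller in footprints than in mRNA.

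GAPA1 and GAPA2 are 85.8% identical over their aligned coding bases, and 0.172% and 0.938% of their 28-base windows occur elsewhere in the genome, so their reads could mostly be told apart. The following stretch of 30 coding bases, about the length of a footprint, is shown because capitals mark its 10 differing bases (TAIR10.1 of RefSeq, 5′ to 3′ on the coding strand, GAPA1 at chr3:9795890-9795919, plus strand and GAPA2 at chr1:4393557-4393586, minus strand).
GAPA1: CaAGttgtCtctAaCcgAaacccGtctCTt
GAPA2: AaGAttgtAtctGaTcgTaacccAtctAAt

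The 11 genes that regenerate the acceptor had a median centred ratio of 0.41, and 10 of them lay above the median gene. Aldolase, which joins triose phosphates, is encoded by 3 plastid genes. FBA2 (AT4G38970) had 2201 ribo-seq RPM and 3472 mRNA-seq RPM and a centred ratio of 0.33 (0.32 to 0.34). FBA1 (AT2G21330) had 890.2 ribo-seq RPM and 1329.7 mRNA-seq RPM, a centred ratio of 0.41. FBA3 (AT2G01140), the minor gene, had 58.7 ribo-seq RPM and 106 mRNA-seq RPM and a centred ratio of 0.15 (0.08 to 0.22). Per kb of coding sequence the 3 aldolase genes spanned 50.0 to 1839 RPM in ribo-seq, while their centred ratios stayed within 0.15 to 0.41. pdTPI (AT2G21170), the plastid triose phosphate isomerase that supplies aldolase, had 280.3 ribo-seq RPM and 471 mRNA-seq RPM, a centred ratio of 0.24.

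The light-activated bisphosphatases lay higher. SBPase (AT3G55800), which dephosphorylates sedoheptulose bisphosphate, had 1159 ribo-seq RPM and 1447 mRNA-seq RPM, a centred ratio of 0.67 (0.65 to 0.69). FBPase (AT3G54050), its counterpart for fructose bisphosphate, had 481 ribo-seq RPM and 684 mRNA-seq RPM, a centred ratio of 0.48. PRK (AT1G32060), phosphoribulokinase, which makes ribulose bisphosphate in the last step, had 1054 ribo-seq RPM and 1393 mRNA-seq RPM, a centred ratio of 0.59. All 3 had more RPM in mRNA-seq than in ribo-seq, as had 32 of the 35 members. RPM is scaled to all reads of a library. With 1 isoform per gene, exons held 19298407 of 38438718 reads in ribo-seq and 56098896 of 66958224 in mRNA-seq. On this scale most genes were lower in ribo-seq, and 5.80% of all tested genes had more RPM there.

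Transketolase moves ketol groups between the sugar phosphates of the cycle. TKL1 (AT3G60750) carried nearly all of its expression, with 2282 ribo-seq RPM and 3152 mRNA-seq RPM and a centred ratio of 0.52 (0.51 to 0.53). TKL2 (AT2G45290) had 12.0 ribo-seq RPM and 26.5 mRNA-seq RPM, a centred ratio of -0.10 (-0.23 to 0.04), the only one of the 11 genes below the median gene. From the reads themselves the ratio of TKL1 was 1.60-fold that of TKL2 (1.45 to 1.78). RPE (AT5G61410), ribulose phosphate epimerase, had 409 ribo-seq RPM and 674 mRNA-seq RPM, a centred ratio of 0.27. RPI (AT3G04790, chr3:1313297-1314288, plus strand), ribose phosphate isomerase, which feeds the same pool of ribulose phosphate from the other branch, had 394 ribo-seq RPM and 369 mRNA-seq RPM. It was 1 of 3 members with more RPM in ribo-seq than in mRNA-seq, as 5.80% of all tested genes had, and its centred ratio was 1.08 (1.05 to 1.11). Against the median of its own level decile RPI was at 0.76 on the log2 scale.

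CP12 is a small protein that in the dark binds glyceraldehyde phosphate dehydrogenase and PRK into an inactive complex. Its 3 genes spanned the whole range seen among the Calvin cycle genes. CP12-2 (AT3G62410, chr3:23090944-23091580, plus strand) had 414 ribo-seq RPM and 357 mRNA-seq RPM, a centred ratio of 1.20 (1.17 to 1.23), higher than 97.6% of all tested genes, and it was at 0.88 against the median of its own level decile, inside the 2-fold limit. CP12-1 (AT2G47400) had 337 ribo-seq RPM and 666 mRNA-seq RPM, a centred ratio of 0.01 (-0.02 to 0.04). The order of the pair was therefore reversed between the libraries, per kb as well as in RPM, with CP12-1 higher in mRNA and CP12-2 higher in footprints, and the ratio of CP12-2 was 2.29-fold that of CP12-1 (2.23 to 2.36). CP12-3 (AT1G76560), the minor gene, had 0.572 ribo-seq RPM and 3.41 mRNA-seq RPM, from 22 and 228 reads. Its centred ratio was -0.50 (-0.76 to -0.23), a value that the pseudocount pulls towards 0. From the reads alone its ratio was 6.90-fold below that of CP12-2 (4.45 to 10.7).

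CP12-1 and CP12-2 have short coding sequences of 375 and 396 bases, are 74.5% identical over the aligned bases and share none of their 28-base windows with each other or any other locus, so footprints could be assigned to each. Capitals mark the 11 differing bases in 30 bases of the coding sequence (CP12-1 at chr2:19446907-19446936, plus strand, CP12-2 at chr3:23091021-23091050, plus strand, TAIR10.1).
CP12-1: GctggCctCaacGtCgcGacTcCAcgAgtG
CP12-2: ActggTctTaacAtTgcAacCcAGcgTgtC
Short coding sequences had higher ratios across all tested genes (Spearman's rho of length and centred ratio -0.46 over all genes and -0.24 over the 35 members, given as a description). Centred on deciles of coding length, CP12-2 was at 0.70, CP12-1 at -0.50 and CP12-3 at -1.004. On that scale RPI was at 0.80 and CAT2 at 1.40, so CAT2 alone of the 3 genes stayed past the 2-fold limit, and CP12-3 fell past the lower one.

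Photorespiration begins in the chloroplast with PGLP1 (AT5G36700), phosphoglycolate phosphatase, which had 269.9 ribo-seq RPM and 288 mRNA-seq RPM, a centred ratio of 0.90 (0.86 to 0.93). A second locus, AT5G36790, has a coding sequence identical at 100% of its bases and had 266 ribo-seq RPM and 293 mRNA-seq RPM. All 28-base windows of PGLP1 occur at that copy, so the reads of these loci cannot be told apart and the value belongs to the pair.

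In the peroxisome, glycolate oxidase turns glycolate into glyoxylate and hydrogen peroxide. GOX1 (AT3G14420) had 1298 ribo-seq RPM and 2271 mRNA-seq RPM, a centred ratio of 0.18 (0.17 to 0.20). GOX2 (AT3G14415), its neighbour on chromosome 3, had 951 ribo-seq RPM and 1525 mRNA-seq RPM, a centred ratio of 0.31 (0.29 to 0.33). The genes are 92.4% identical in coding sequence and 15.0% and 13.8% of their 28-base windows occur elsewhere, each mainly in the other gene, so that the 1.09-fold difference in ratio (1.07 to 1.11) is uncertain beyond its counting interval. Of 30 coding bases that do separate them, the 8 differing ones are in capitals (GOX1 at chr3:4823729-4823758, plus strand, GOX2 at chr3:4820578-4820607, plus strand, TAIR10.1).
GOX1: gtAttCTcaTtGgcAgctgaaggagaGgcT
GOX2: gtTttTGcaCtAgcTgctgaaggagaAgcC

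CAT2 (AT4G35090, chr4:16700312-16703504, minus strand), the catalase that removes the hydrogen peroxide of glycolate oxidation, had 1612 ribo-seq RPM and 1315 mRNA-seq RPM. It was the member with the highest centred ratio, 1.28 (1.27 to 1.30), higher than 98.3% of all tested genes, and was at 0.96 against the median of its own level decile. CAT3 (AT1G20620) had 254 ribo-seq RPM and 494 mRNA-seq RPM and CAT1 (AT1G20630) 46.3 ribo-seq RPM and 55.2 mRNA-seq RPM, with centred ratios of 0.03 and 0.74. The ratio of CAT2 was thus 2.39-fold that of CAT3 (2.33 to 2.45) and 1.46-fold that of CAT1 (1.38 to 1.55).

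Aminotransferases of the peroxisome convert glyoxylate to glycine, and the abundant ones lay below the median gene. GGAT1 (AT1G23310, chr1:8268385-8272021, minus strand), the main glutamate:glyoxylate aminotransferase, had 884 ribo-seq RPM and 2659.7 mRNA-seq RPM, and its centred ratio of -0.60 (-0.62 to -0.58) was the lowest of the 35. AGT1 (AT2G13360), which takes the amino group from serine, had 846 ribo-seq RPM and 1991 mRNA-seq RPM, a centred ratio of -0.25 (-0.26 to -0.23). GGAT2 (AT1G70580) was a minor gene with 61.4 ribo-seq RPM and 100.3 mRNA-seq RPM, and its centred ratio of 0.29 exceeded that of GGAT1 by 1.84-fold (1.76 to 1.93). Against the genes of its own level decile GGAT1 was at -0.92, just inside the 2-fold limit. HPR1 (AT1G68010), the hydroxypyruvate reductase that makes glycerate later in the same organelle, had 940.0 ribo-seq RPM and 1278 mRNA-seq RPM, a centred ratio of 0.55. With the pseudocount of 1 RPM the 7 peroxisomal genes therefore held both the highest and the lowest centred ratio, around a median of 0.29. From the reads alone, CP12-3 (0.572 ribo-seq RPM and 3.41 mRNA-seq RPM) had a lower ratio than GGAT1. Centred on deciles of coding length, CP12-3 was also lower, at -1.004 against -0.48 for GGAT1.

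In the mitochondrion, glycine decarboxylase joins the P, T, H and L proteins to split glycine. GLDP1 (AT4G33010), encoding the P protein that decarboxylates glycine, had 1666 ribo-seq RPM and 3377 mRNA-seq RPM, a centred ratio of -0.03. GLDP2 (AT2G26080), the second P protein gene, had 745 ribo-seq RPM and 1982 mRNA-seq RPM, a centred ratio of -0.42 (-0.44 to -0.40). These are the longest coding sequences among the members, and they lay below the median gene. GLDT (AT1G11860), the T protein that releases ammonium, had 1126 ribo-seq RPM and 1568 mRNA-seq RPM, a centred ratio of 0.51. The H protein, which carries the aminomethyl group on a lipoyl arm, was encoded by GLDH1 (AT2G35370) with 369 ribo-seq RPM and 527 mRNA-seq RPM, a centred ratio of 0.48. GLDH3 (AT1G32470), another H protein gene, had 423 ribo-seq RPM and 503 mRNA-seq RPM, a centred ratio of 0.74 (0.71 to 0.77). GLDH2 (AT2G35120), the weakly expressed H protein gene, had 7.49 ribo-seq RPM and 10.1 mRNA-seq RPM, a centred ratio of 0.60 (0.43 to 0.78), and the ratio of GLDH3 was 1.13-fold that of GLDH2 (0.985 to 1.30), not distinguishable at this depth. Of the 6 glycine decarboxylase genes 4 lay above the median gene, and all 6 did when each was centred on genes of like coding length.

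SHM1 (AT4G37930), the serine hydroxymethyltransferase that makes serine from the glycine and the one-carbon unit released, had 2377 ribo-seq RPM and 3189 mRNA-seq RPM, a centred ratio of 0.57 (0.55 to 0.58). Its cytosolic counterpart SHM4 (AT4G13930) had 188 ribo-seq RPM and 227 mRNA-seq RPM and a centred ratio of 0.71. GLYK (AT1G80380), the chloroplast glycerate kinase that closes the pathway, had 197 ribo-seq RPM and 419 mRNA-seq RPM, a centred ratio of -0.09 (-0.13 to -0.06). By organelle the medians were 0.30 for the 21 chloroplast genes, 0.29 for the 7 peroxisomal genes and 0.51 for the 7 mitochondrial genes, and the ranges of the 3 groups overlapped.

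Levels of different genes were compared per kb of coding sequence. FBA2 was the highest of the members in both libraries, with 1839 RPM per kb in ribo-seq and 2901 RPM per kb in mRNA-seq. SHM1 was next by footprints with 1529.9 and 2052 RPM per kb, followed by GAPB with 1488 and 2655 RPM per kb, ribo-seq before mRNA-seq. At the low end were GGAT2 with 42.5 and 69.4 RPM per kb, GLDH2 with 15.9 and 21.4 RPM per kb, TKL2 with 5.39 and 11.9 RPM per kb and CP12-3 with 1.41 and 8.41 RPM per kb, in ribo-seq and mRNA-seq. Most members differed in rank between the libraries, and the largest shifts were those of CAT2, CP12-2, GGAT1 and AGT1. CAT2 was 22nd of 35 by mRNA and 7th by footprints, and CP12-2 moved from 21st to 8th. In the other direction GGAT1 went from 6th to 21st and AGT1 from 8th to 20th. For proteins that work together, the H protein genes summed to 1602 RPM per kb in ribo-seq, GLDT had 918 and the P protein genes 772, whereas in mRNA-seq the P protein genes (1717) exceeded GLDT (1278). The P protein genes have the longest coding sequences of the members, and ratios fell with length over all genes. Centred on deciles of coding length, GLDP1 was at 0.63, GLDP2 at 0.24 and GLDT at 0.56. mtLPD1 and mtLPD2, genes of the L protein that other mitochondrial complexes also use, summed to 205 RPM per kb in ribo-seq and 303 in mRNA-seq. The CP12 genes summed to 1947 RPM per kb in ribo-seq and 2686 in mRNA-seq, against 887 and 1173 for PRK.

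**Figure D2:**
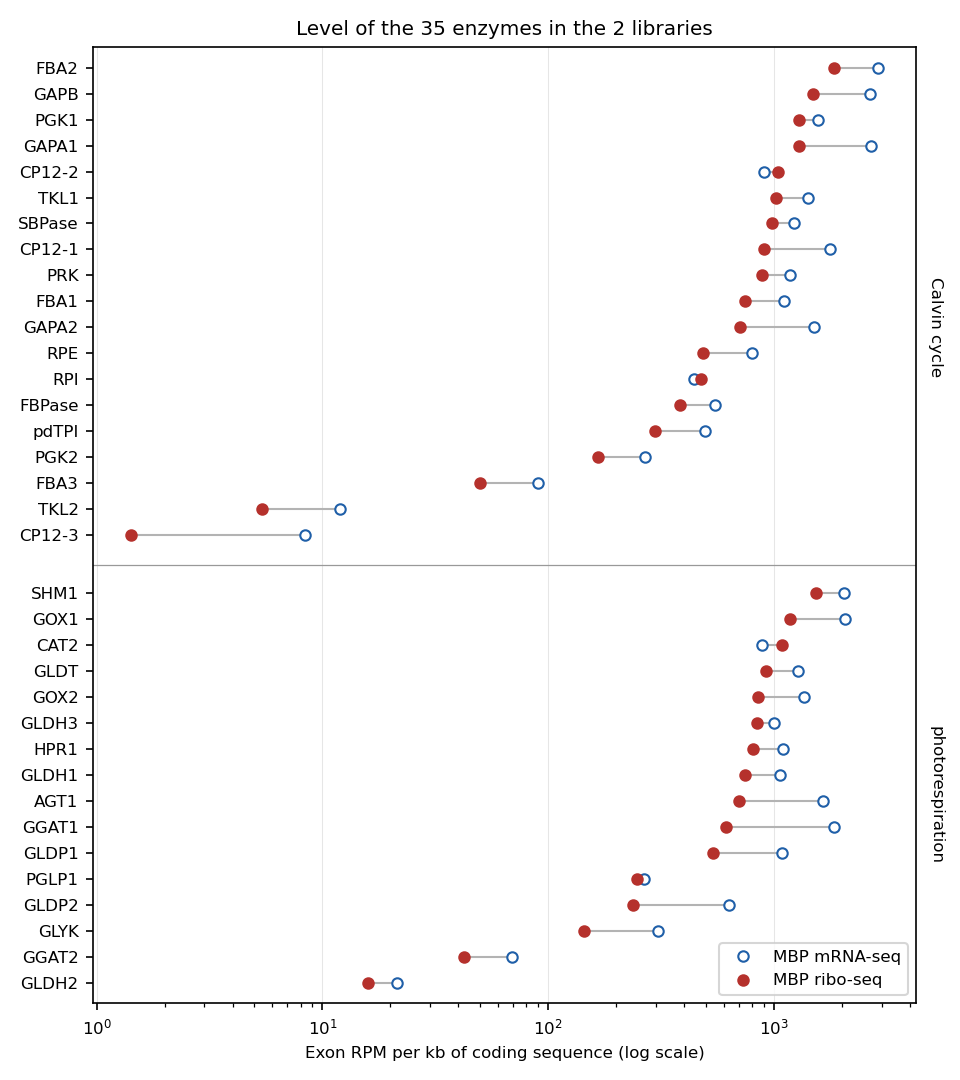
Exon RPM per kb of coding sequence (x axis, log scale) of each member in MBP ribo-seq (filled) and MBP mRNA-seq (open), 1 library each, ordered by the ribo-seq value within the Calvin cycle and photorespiration. The filled point lies right of the open one only for CP12-2, RPI and CAT2, and TKL2, CP12-3 and GLDH2 lie far below the other genes. RPM is scaled to all reads of a library, of which exons held a smaller part in ribo-seq.

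The ratios were then set beside those of related genes, in 3 lists. The 17 genes of other compartments or families that catalyse the same reactions had a median centred ratio of 0.58 (12 above the median gene), and ran from -1.53 (FBA7, AT4G26520, 6.79 ribo-seq RPM and 43.5 mRNA-seq RPM) to 1.46 (GAPC1, AT3G04120, 521 ribo-seq RPM and 376 mRNA-seq RPM). More than 2-fold above the median gene were 5 of the 17, beside the 5.59% of all tested genes, all genes of cytosolic glycolysis: GAPC1, GAPC2, PGK3, TPI and FBA8, which are named because of their values. All 5 fell in the highest decile by mean exon RPM, of which 12.3% passed this limit. Centred on the median of that decile (0.32), GAPC1 alone of them stayed past the limit. The cytosolic dehydrogenase genes GAPC1 and GAPC2 (AT1G13440, 1144 ribo-seq RPM and 1032 mRNA-seq RPM, centred ratio 1.14) exceeded the plastid GAPB in ratio by 2.47-fold (2.42 to 2.52) and 1.98-fold (1.95 to 2.01). Cytosolic phosphoglycerate kinase PGK3 (AT1G79550, 229 ribo-seq RPM and 187 mRNA-seq RPM) exceeded PGK1 by 1.48-fold (1.44 to 1.52). TPI (AT3G55440, 583 ribo-seq RPM and 555 mRNA-seq RPM) exceeded pdTPI by 1.77-fold (1.72 to 1.81), and the aldolase FBA8 (AT3G52930, 369 ribo-seq RPM and 322 mRNA-seq RPM) exceeded FBA2 by 1.81-fold (1.77 to 1.85). Centred on deciles of coding length these log2 differences were 1.07 (GAPC1) and 0.75 (GAPC2) to GAPB, 0.40 for PGK3, 0.72 for TPI and 0.85 for FBA8. Not all genes of the list lay above the plastid genes. FBA5 (AT4G26530), an aldolase gene with more mRNA than FBA8 (138 ribo-seq RPM and 396 mRNA-seq RPM), had a centred ratio of -0.52, below FBA1 and FBA2, and the remaining aldolase genes ran from -1.53 (FBA7) to 0.95 (FBA6). For fructose bisphosphatase the ratio of the cytosolic gene was 1.07-fold that of FBPase (1.04 to 1.11), and the direction turned when both were centred on deciles of coding length, with a log2 difference of -0.14.

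The 20 other genes of photorespiration and ammonium recycling had a median centred ratio of 0.44 (14 above), with 0 more than 2-fold above the median gene and 1 more than 2-fold below it. GS2 (AT5G35630), the plastid glutamine synthetase that captures photorespiratory ammonium, was highest at 0.88, with 2833 ribo-seq RPM and 3047 mRNA-seq RPM. The lowest was DiT1 (AT5G12860), a dicarboxylate transporter of the chloroplast envelope, at -1.05, with 125 ribo-seq RPM and 515 mRNA-seq RPM. Of the other transporters on the list, PLGG1 (AT1G32080), the glycolate and glycerate carrier, had 169.6 ribo-seq RPM and 666 mRNA-seq RPM (-0.98), and DiT2 (AT5G64290) had 59.4 ribo-seq RPM and 202 mRNA-seq RPM (-0.76). BASS6 (AT4G22840), a glycolate transporter, had 0.520 ribo-seq RPM and 2.06 mRNA-seq RPM from 20 and 138 reads, and its centred ratio of -0.02 (-0.29 to 0.25) was at the median gene. These 3 transporters are named after their values were seen. The 5 genes of Rubisco small subunits and activase, whose small subunit copies share sequence, had a median of 0.83 and held 6.36% of exon reads in ribo-seq and 4.52% in mRNA-seq. Genes within a list are not replicates, and these differences between lists were not tested.

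**Figure D3:**
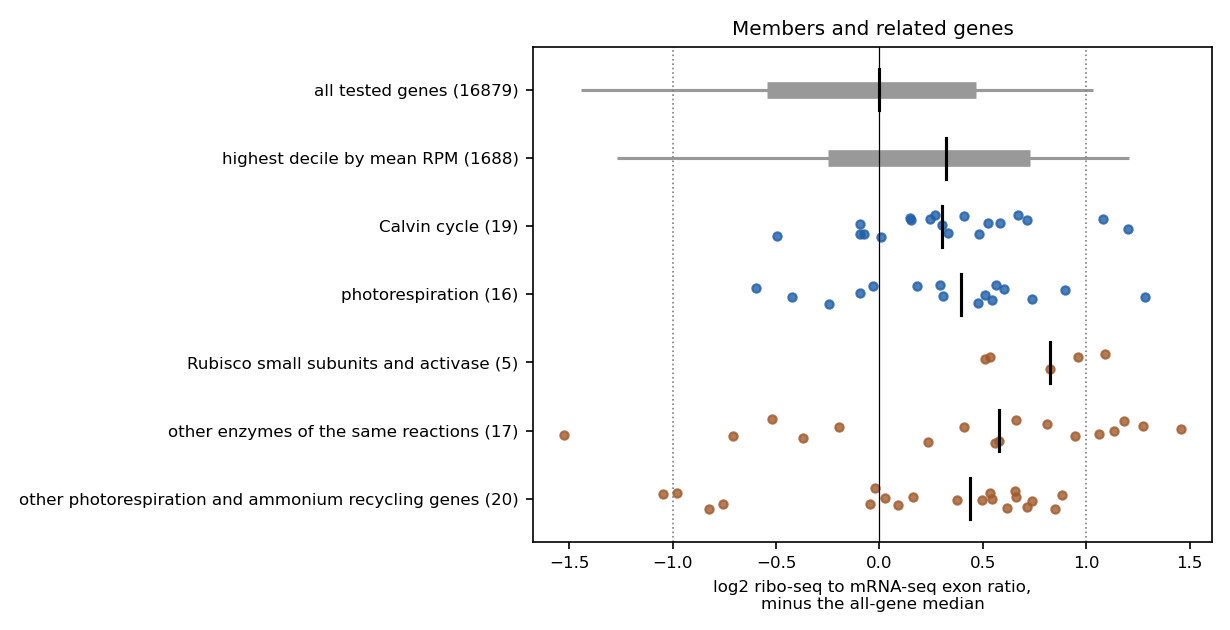
Centred ratio (x axis) of the Calvin cycle and photorespiration members and of the 3 lists of related genes, 1 point per gene and a vertical bar at each median, beside all tested genes and the highest decile by mean RPM (thick bar: middle 50%, thin line: 5th to 95th percentile). The medians are 0.30 and 0.39 for the members and 0.83, 0.58 and 0.44 for the related lists, against 0.32 for the highest decile.

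A binomial test on the recovered reads compared the libraries and not conditions, and at this depth it called most genes. Against the library totals it called 3 members higher and 32 lower in ribo-seq, beside 3.53% and 90.1% of all tested genes. Against the median gene it called 30 members higher and 4 lower, beside 39.7% and 39.6%. The 30 exceed the 26 members whose centred ratio lay above the median gene with the pseudocount of 1 RPM. Some members below it on that scale were therefore called higher here. With a pseudocount of 0.1 RPM, 31 of the 35 lay above.

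Footprints of the members lay almost wholly in the coding exons. In ribo-seq the 5' UTR held 0.383% of the members' reads (0.372 to 0.395) and the 3' UTR 0.0352%, or 411 reads. In mRNA-seq the same features held 2.65% and 8.38%, the latter 304944 reads. The 5' UTR share was lower in ribo-seq than in mRNA-seq beyond the Wilson 95% intervals in 33 of 35 genes, the exceptions being TKL2 and CP12-3 with too few footprints to show a difference, and the 3' UTR share was lower in all 35, and 6 members had 0 footprints in the 3' UTR. Over all genes the ribo-seq shares were 1.14% and 3.11%. They were 0.950% and 0.672% when genes starting within 154478 bp of the left end of chromosome 1 were left out, a stretch that is as long as the plastid genome, holds no member and moved the 3' UTR share. For the non-member genes outside that stretch that averaged 100 exon RPM or more, closer in level to the members, they were 0.566% and 0.937%. Relative to the exon and to mRNA-seq, as log2 with a pseudocount of 0.5, the 5' UTR occupancy of the 32 members with a mean 5' UTR value of at least 0.5 RPM had a median of -2.94 and ran from -5.51 (FBA1) to -1.15 (GLDT). It was above 0 in 0 of the 32, beside 24.2% of the 7029 genes with a value, whose median was -0.87. Those 7029 genes were not matched to the members in level. In the non-member genes outside that stretch that averaged 100 exon RPM or more, the 5' UTR share was 0.566% in ribo-seq and 3.19% in mRNA-seq. Whether the low occupancy is particular to the members was not tested. FBPase, TKL2 and CP12-3 had too few 5' UTR reads for a value.

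The 5' UTR footprints were spread unevenly over the members. The members had 4472 such reads in all. GLDT had the highest share, 2.29% of its reads in ribo-seq (1013 reads, Wilson 95% interval 2.15 to 2.43) and 4.56% in mRNA-seq. GLDP1 was next by number of reads, with 1.11% of its reads in ribo-seq (717 reads, Wilson 95% interval 1.03 to 1.19) and 2.80% in mRNA-seq. These 2 genes of the glycine decarboxylase complex held 22.7% and 16.0% of the members' 5' UTR footprints, against 5.73% and 7.09% of their 5' UTR reads in mRNA-seq. Also above 1% were GGAT1, with 1.10% of its reads in ribo-seq (377 reads, Wilson 95% interval 0.992 to 1.21) and 5.88% in mRNA-seq, and PGK2, with 1.21% of its reads in ribo-seq (112 reads, Wilson 95% interval 1.0 to 1.45) and 2.82% in mRNA-seq. After GLDP1 the most 5' UTR reads were in FBA2, with 0.531% of its reads in ribo-seq (452 reads, Wilson 95% interval 0.485 to 0.582) and 3.19% in mRNA-seq. Paralogs among the members had lower shares, with 6 reads in GLDP2 and 10 in FBA1. FBPase, TKL2, CP12-3 and GLDH2 had 0 footprints in the 5' UTR, which allows up to 3 reads.

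By pathway, the ribo-seq 5' UTR share was 0.230% (0.219 to 0.242) in the Calvin cycle genes and 0.566% (0.546 to 0.586) in the photorespiration genes, against 2.43% and 2.88% in mRNA-seq. Without GLDT and GLDP1, left out after their values were seen, the photorespiration share was 0.303% (0.287 to 0.320). The gap was then smaller, but the genes were left out on 1 side only. The Calvin cycle genes kept FBA2, which had the most 5' UTR footprints among them, 452 of 1460 reads. The tables count a read for every isoform whose 5' UTR covers at least 80% of it, and the RefSeq 5' UTR of GAPA2 (117 bases) lies wholly in the coding sequence of another isoform, as do 3 bases of that of GLDT.

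**Figure D4:**
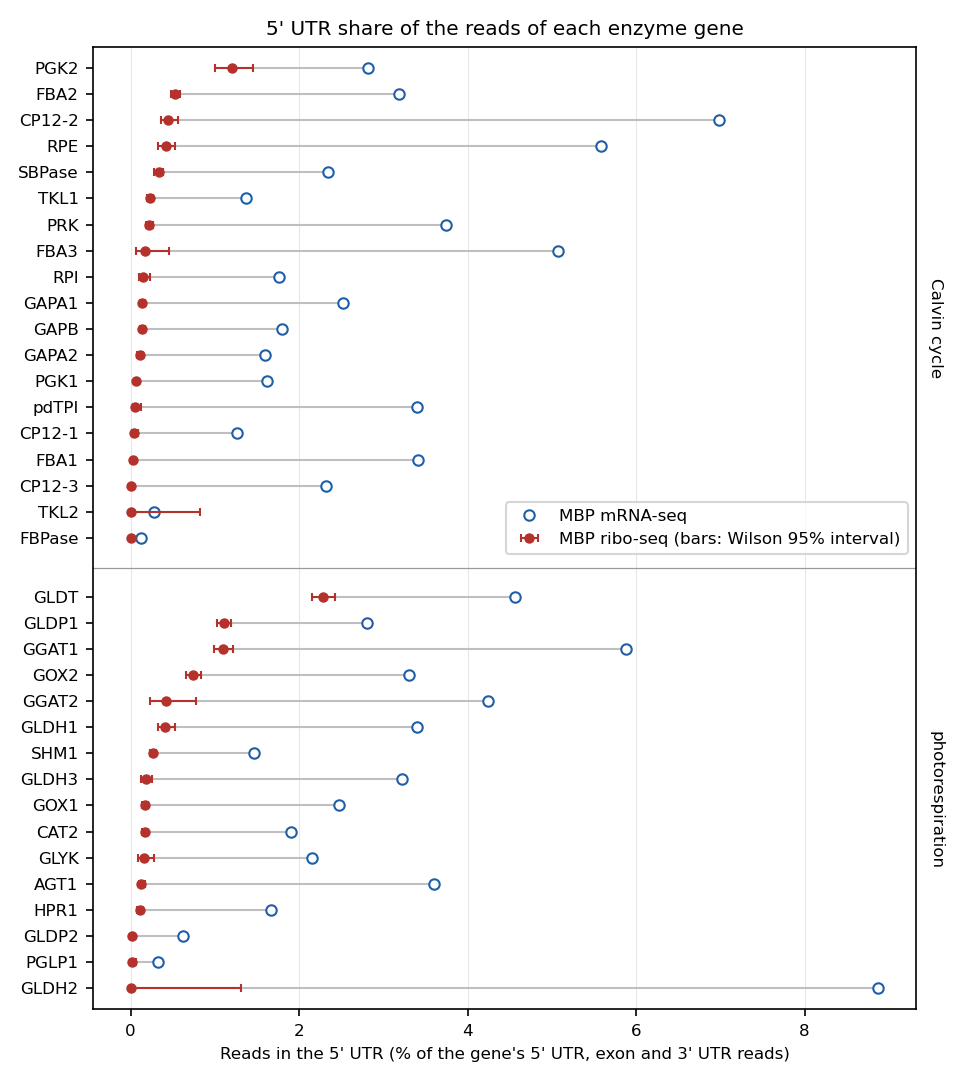
Share of each member's reads that lay in the 5' UTR (x axis, % of its 5' UTR, exon and 3' UTR reads) in MBP ribo-seq (filled, Wilson 95% interval, left out for CP12-3 with 22 exon reads) and MBP mRNA-seq (open). Filled points lie left of the open ones, by less than the counting intervals for TKL2 and CP12-3, and GLDT at 2.29% is the farthest right of them.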

How the data were processed

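MBP ribo-seq and MBP mRNA-seq were each made once, so samples were grouped by assay, and no column was left unassigned. The authors aligned reads with TopHat2 2.0 to TAIR10 and assigned them with bedtools 2.23.0 to the 5' UTR, exons and 3' UTR of each isoform at an overlap of at least 80%. For mRNA-seq in general the methods exclude reads with several map positions. The separate methods for the MBP tables do not state this, and in them reads are present at PGLP1 and at its copy of identical coding sequence. Strand handling was not given in the sources used here. For RNA-seq in general polyA+ RNA was selected, whereas the ribo-seq protocol names no such step and recovered fragments of 23 to 35 nt per the labels (25 to 35 nt in the methods). The deposited ribo-seq values and the UTR values are RPM per isoform. In both libraries a read counted for every isoform it overlapped. The deposited mRNA-seq exon column carries the same name but therefore sums to 1348201, and was handled as a signal. The ribo-seq exon column sums to 813409.

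Low values were whole multiples of 1 step per library: 100% of the values under 100 reads were whole within 0.1 reads, and reads were recovered from this step. For each gene the isoform highest in mean exon value was taken. The ratio used a pseudocount of 1 RPM, which understates the differences of low genes, and a minimum mean exon RPM of 1. With 1 library per assay a call was a fold, more than 2-fold from the median ratio of all tested genes. Intervals are 95% counting intervals, by the delta method on the scale of the ratio, from reads alone for folds between 2 genes, and by Wilson's method for shares. They and the floor of 3 counts cover counting error only (PCR copies of 1 molecule are not independent). The binomial test, adjusted by Benjamini-Hochberg at 0.05, was an alternative. Coding lengths (16825 of 16879 tested genes), coordinates and sequences came from the RefSeq annotation of TAIR10.1, in which all 35 members matched. Shared 28-base windows were counted over the whole genome, a check chosen after seeing the data.

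The members and the lists were chosen with earlier results of these data known. All 35 members are named. From the lists of related genes the highest and the lowest were named by rule, and others as stated. The procedure was tested on simulated data. Scripts ran in Python 3.11.15 with biopython 1.88, scipy 1.17.1, pandas 2.3.3 and numpy 2.4.6. Alternatives covered pseudocount, filter, scaling, isoform, UTR values, reference genes, near-identical copies and the test.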

Additional observations from a re-analysis of the deposited data

How the results depend on the processing

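Sign and size of the members' median depended on the reference. The median centred ratio of all members (0.31), of the Calvin cycle genes (0.30) and of the photorespiration genes (0.39) became 0.46, 0.46 and 0.55 with a pseudocount of 0.1 RPM, and -0.0067, -0.0067 and 0.064 with 5 RPM. Without an expression filter they were -0.088, -0.094 and -0.0041. In these settings the members' own median ratio stayed between -0.68 and -0.66, while that of all genes moved from -0.99 to -1.14 with 0.1 RPM, to -0.65 with 5 RPM and to -0.59 without the filter, since a pseudocount draws low genes towards 0. Rescaling each library to its exon sum gave 0.44, 0.43 and 0.52. Centring within deciles of mean exon RPM gave 0.0098, 0.0098 and 0.071. Within deciles of coding length the values for all members and photorespiration were 0.29 and 0.27. Without GAPA1, GAPA2, GOX1, GOX2 and PGLP1, the genes treated as near-identical copies, they were 0.37 and 0.48. That choice was not by identity alone: GAPA1 and GAPA2 are 85.8% identical, while GLDH1 and GLDH3, at 88.2%, were kept. Summed isoforms gave 0.34 and 0.34 for all members and the Calvin cycle, and added UTR values 0.38 and 0.38. A minimum of 10 RPM gave 0.33 for photorespiration. The other alternatives moved these medians by less than the counting interval.

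The 3 members more than 2-fold above the median gene became 0 with a pseudocount of 5 RPM, without the filter and within deciles of mean RPM, and 1 within deciles of coding length. Under the remaining fold settings the count was 2 to 4. The 0 members below became 1 with a pseudocount of 0.1 RPM and within deciles of coding length. The binomial test called 30 higher and 4 lower against the median gene, and 32 lower against the library totals.

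The members' share of exon reads (ribo-seq first, then mRNA-seq) was 6.05% and 5.80% with the isoforms numbered 1, 7.05% and 6.93% with summed isoforms, 5.05% and 4.69% without near-identical copies, and 6.19% and 5.84% when the total left out the first stretch of chromosome 1. Summing isoforms moved the 5' UTR share to 1.37% and 3.68% and the 3' UTR share to 0.776% and 9.30%, and the isoforms numbered 1 gave 8.57% for the 3' UTR in mRNA-seq. Without GLDT and GLDP1, an alternative chosen after seeing the data, the ribo-seq 5' UTR share was 0.259% for the members and 0.303% for photorespiration. No paired analysis was possible because there was 1 library per assay, and no replicate could be left out. Depth limits CP12-3, TKL2 and GLDH2, with 22, 461 and 288 exon reads in ribo-seq.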
